A study of Homo sapiens with 9 samples.

Results

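The genes described here are the human zinc finger genes numbered ZNF500 to ZNF899, measured in cultured kidney cells in which RNA decay factors were targeted. Of 263 such symbols in the deposited identifiers, at 244 assembled loci, 234 loci were in the gene table and 10 were not. A further 59 lay under a mean of 1 FPKM over the 4 libraries. The remaining 175 loci, which hold 194 of the symbols, are the members, out of 12164 loci with a mean of at least 1 FPKM. FPKM is the read count scaled to transcript length and library size. The members were chosen by their mean FPKM, so their levels are given as a description. Just inside the limit lay ZNF717, ZNF600 and ZNF792, each with a mean of 1.01 FPKM, and just outside it ZNF852 at 0.996, ZNF619 at 0.948 and ZNF668 at 0.917.

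The RNA was cytoplasmic, released with digitonin and selected for poly(A) tails. The cells were of the b-39 subline of HEK293 Flp-In T-Rex, an established line of human embryonic kidney origin. All 4 groups share this subline, which expresses a beta-globin reporter with a premature stop codon (PTC39) from the Flp-In locus. The groups received a control siRNA against EGFP, siRNA against XRN1, siRNA against SMG6 and XRN1, or siRNA against UPF1 and XRN1. Each group had 1 RNA-seq library of the 9 samples in the series, and the other samples were not analysed here. With 1 library per group, no difference has a replicate check and no p-value is given. Every difference therefore describes these libraries.

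Most members encode C2H2 zinc finger proteins, in which each finger folds around a zinc ion held by a pair of cysteines and a pair of histidines and can read a short stretch of DNA. Many carry a KRAB domain, which recruits TRIM28 and heterochromatin enzymes and is known for silencing transposable elements, and many of these genes stand in clusters on chromosome 19. Nonsense-mediated decay (NMD) removes mRNAs whose stop codon lies well upstream of the last exon junction. UPF1 is its central helicase, SMG6 the endonuclease that cuts such mRNAs near the stop codon, and XRN1 the cytoplasmic exonuclease that degrades RNA from the 5' end. In most genes of this family a long last exon encodes the finger array, so a normal stop codon lies in the last exon.

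The libraries held 31476534 to 35983437 estimated reads. The 8 HEK293-like markers summed to 658 to 720 FPKM; 5 of them were tested, and PAX2, LHX1 and NEFM lay under 1 FPKM. Markers of fibroblasts, endothelium and liver summed to at most 0.708 FPKM in any library. COL1A2, PECAM1 and APOA1 had no value, so endothelium and liver rest on VWF and ALB alone. Of the blood markers HBA1 alone was tested, and the 3 summed to 3.84 to 6.31 FPKM. The epithelial marker EPCAM carried a sum of 98.3 to 127 FPKM, and the other one, CDH1, lay under 1 FPKM. The mRNAs of the targeted genes give no check of the labels. XRN1 stood at 7.80, 7.31, 10.1 and 6.50 FPKM in the control and the libraries labelled XRN1, SMG6/XRN1 and UPF1/XRN1. In the same order SMG6 stood at 4.77, 5.55, 7.66 and 5.97 FPKM, and UPF1 at 6.71, 11.6, 11.4 and 8.59 FPKM. Every direction given here therefore rests on the labels. In bulk RNA, fewer cells that express a gene and less of its RNA per cell cannot be told apart.

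The 175 members were low to moderate in level. Their median of the mean was 4.98 FPKM, with quartiles of 2.33 and 10.4, against 9.1 over all loci tested. Of the members, 87 reached 5 FPKM and 44 reached 10 FPKM. None was listed at 0 in any library. In the GENCODE annotation, release 29, 173 members were matched, 171 of them as protein coding, and 85 were on chromosome 19. ZNF767 and ZNF542 are listed there as transcribed pseudogenes, and ZNF658 and ZNF883 were not matched. Of 167 members with an annotated coding sequence, the median number of C2H2 fingers found by pattern was 10, the range 0 to 29, and 4 had none. A KRAB pattern was found in 105, of which 72 were on chromosome 19, where 82 of the 167 stood. Such patterns can miss divergent copies.

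An assembled locus can hold more than 1 gene. In 148 members at least 80% of the signal of the locus came from isoforms with a ZNF500 to ZNF899 symbol, in 27 less, and in 19 under 50%. The second to the sixth highest loci by FPKM were of this kind. ZNF713 (mean 114 FPKM) shares its locus with GBAS and MRPS17, and its own isoforms gave 1.35% of the signal. For ZNF544 that share was 14.3%, for ZNF605, assembled with ANKLE2, POLE, GOLGA3 and CHFR, 8.14%, for ZNF514, assembled with MRPS5, 7.49%, and for ZNF512, assembled with GPN1, 47.4%. The FPKM of these loci are not levels of the zinc finger genes. In all, 15 members hold several symbols of the same number range, such as ZNF577 with ZNF649, and values there cannot be assigned to a single gene. Near-identical family copies can also share reads, and the use of strand in counting was not given in the sources used here.

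**Figure D1:**
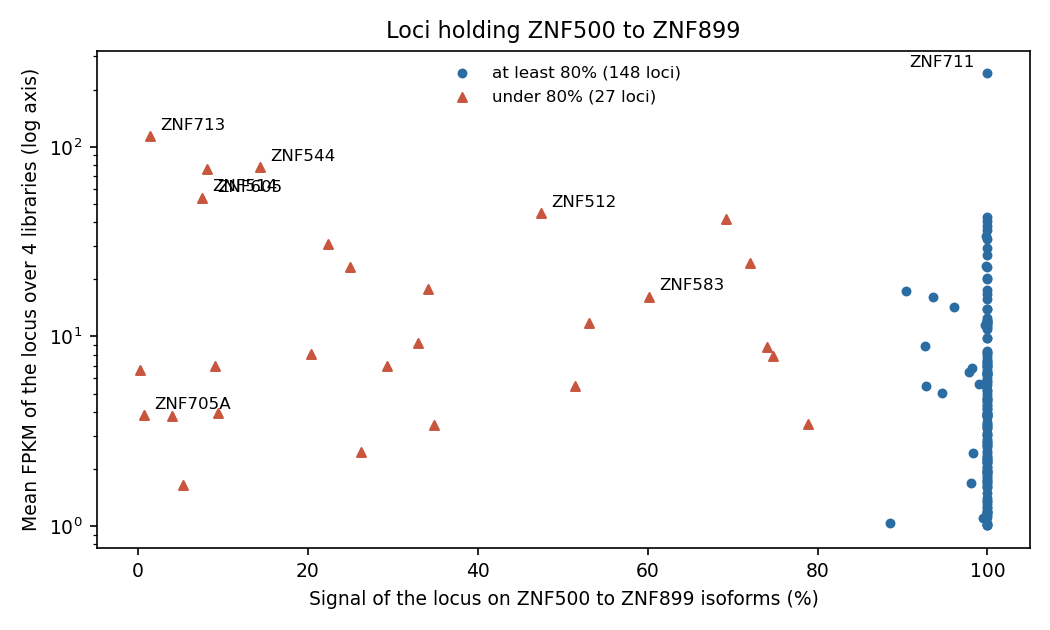
Each point is 1 of the 175 member loci, with the share of its isoform signal on ZNF500 to ZNF899 symbols in percent on the x axis and its mean FPKM over 4 libraries on a log y axis. Blue circles are the 148 loci with a share of at least 80% and red triangles the 27 with less, among them ZNF713, ZNF544, ZNF605 and ZNF514, which lie at the high end of FPKM.

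ZNF711 was the highest member whose locus holds its own symbol alone. It encodes a zinc finger protein on chromosome X that binds CpG island promoters and is known from intellectual disability. Its level was 278 FPKM in the control and 346 FPKM with XRN1 alone targeted, and 184 and 170 FPKM in SMG6/XRN1 and UPF1/XRN1. The XRN1 library was highest and both co-depletions were lowest. ZNF706, ZNF622 and ZNF644 came next among loci with at least 80% of own signal, at means of 42.9, 40.4 and 38.1 FPKM. ZNF622, a factor of large ribosomal subunit maturation, stood at 36.3, 37.5, 43.5 and 44.2 FPKM in the order control, XRN1, SMG6/XRN1 and UPF1/XRN1, which is kept wherever 4 values stand together. ZNF644, a partner of the histone methyltransferases G9a and GLP, stood at 39.5, 33.3, 40.0 and 39.6 FPKM, with the XRN1 library lowest. ZNF706 stood at 38.5, 42.8, 51.3 and 38.9 FPKM. The last 3 genes passed 2-fold in none of the 6 comparisons.

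Changes are log2((a + 1)/(b + 1)) of FPKM, which understates the change of low genes, and a gene was called at 2-fold. The comparison of XRN1 with the control asks what changes with the exonuclease alone. Of the 175 members, 4 rose (2.29%) and none fell, where 4.11% of all loci rose and 0.37% fell. The member median was 0.15 and that of all loci 0.14. The count of 4 depends on the scale: 9 members rose with a pseudocount of 0.1, 9 on isoform signal summed per locus and 10 on own isoforms. The 10 include ZNF705A, with 0 own reads in both libraries, and ZNF888, with 5 and 16. The share of all loci was not computed on those scales.

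With SMG6 or UPF1 targeted in addition, both compared with the library labelled XRN1, 3 members rose in each comparison. In SMG6/XRN1 over XRN1, 1.71% of members rose, where 1.36% of all loci rose and 0.173% fell, and no member fell. Member and all-locus medians were 0.22 and 0.12. In UPF1/XRN1 over XRN1, 1.71% of members rose and 1 fell, where 2.52% of all loci rose and 0.534% fell. Medians were 0.17 for members and 0.02 for all loci. Small shifts above 0 were common: 145 of 175 members lay above 0 in the first of these and 127 in the second, against 67.5% and 52.1% of all loci (82.9% and 72.6% of members). The 190 loci of ZNF1 to ZNF499 had medians of 0.24 and 0.19.

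Against the control, 14 members (8.0%) rose in SMG6/XRN1, where 9.3% of all loci rose and 0.263% fell. In UPF1/XRN1, 16 members (9.14%) rose, where 10.2% of all loci rose and 0.575% fell. No member fell in either. Of the 14 and 16, 10 and 11 had at least 80% own signal, which is 6.76% and 7.43% of the 148 such members. Changes on own signal use the isoform signal of the member's own symbols. That scale is not FPKM, so values can differ even where all signal is own. At ZNF500 (29.3% own signal) the changes were 1.37 and 1.49, but 0.50 and 0.23 on own signal. At ZNF605 (8.14% own signal) they were 1.63 and 1.21, but 0.50 and 0.30 on own signal. Own signal also added rises: 25 members rose on it in SMG6/XRN1 and 23 in UPF1/XRN1, among them 10 and 11 of those called on FPKM. ZNF568, not called on FPKM, had own ratios of 2.47 and 2.55. The share of all loci was not computed on that scale. On FPKM, medians were 0.34 and 0.26 for members and 0.25 and 0.15 for all loci. Member shares on FPKM lay close to the background in both. These comparisons share the control library, and the comparisons with XRN1 share that library, so they are not independent of each other. Between the co-depletions themselves, no member passed 2-fold either way, where 0.312% of all loci rose and 0.312% fell, and the medians were -0.07 and -0.10. By library, SMG6/XRN1 was highest for 88 members and UPF1/XRN1 for 53, and the control was lowest for 98. This order was not counted over all loci, whose medians over the control (0.25 and 0.15) were also positive.

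**Figure D2:**
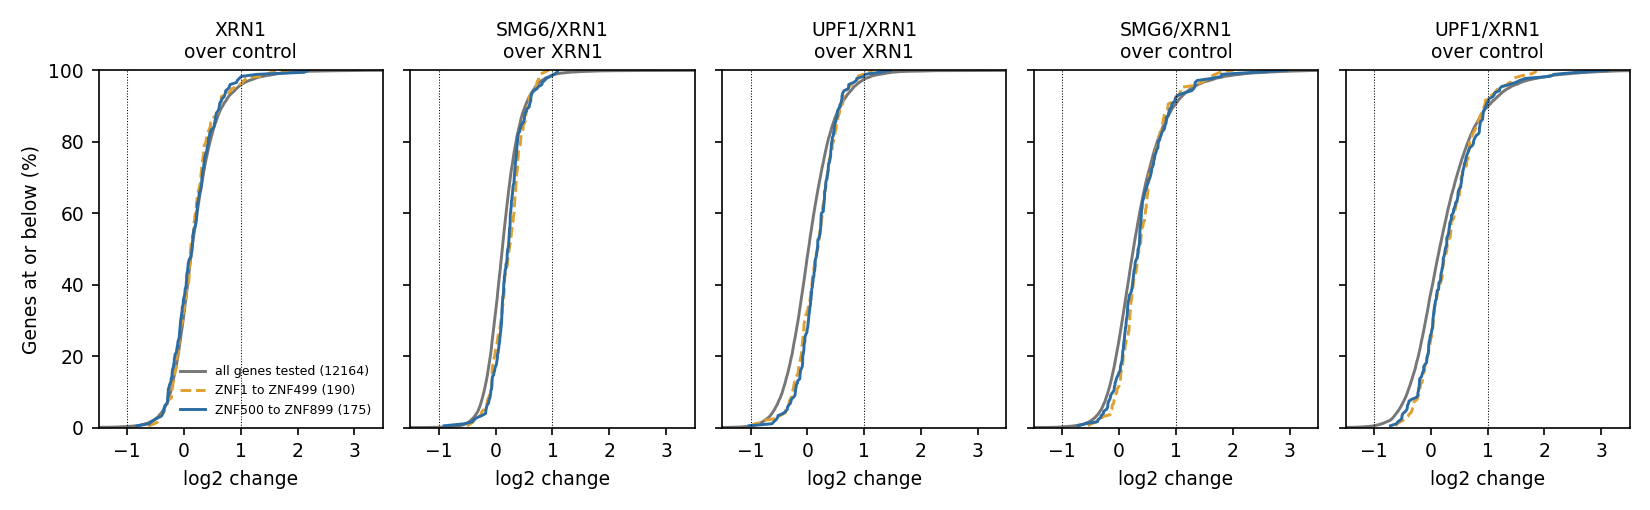
Each panel shows 1 comparison, with the log2 change of FPKM on the x axis and the percent of loci at or below it on the y axis, for the 175 members (blue), 190 loci of ZNF1 to ZNF499 (dashed) and all 12164 loci (grey); dotted lines mark 2-fold. The blue line runs beside the dashed one in every panel, to the right of the grey line through the middle of the distribution over the library labelled XRN1, and near the grey line at the 2-fold mark. A few loci of the grey line lie outside the x axis.

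The members with the largest rises were ZNF767 and ZNF692. ZNF767, annotated as a pseudogene, stood at 1.45 FPKM in the control and at 9.61, 17.7 and 20.1 FPKM in XRN1, SMG6/XRN1 and UPF1/XRN1. The control was lowest, and all 3 other libraries were several-fold higher. It rose over the control by 2.11, 2.94 and 3.11 on the log2 scale. Its own reads were 78, 1142, 1737 and 2099, and the ratio of XRN1 to control, scaled as in the deposited normalization, was 15.4 (95% counting interval 12.2 to 19.6). The steps from XRN1 to the co-depletions were 0.82 and 0.99, under 2-fold.

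ZNF692 encodes a C2H2 protein without a KRAB pattern in its 524 residues. Its level was 0.835 FPKM in the control and 7.36, 8.49 and 9.94 FPKM in XRN1, SMG6/XRN1 and UPF1/XRN1. Again the control was lowest and the other libraries lay close together. It rose over the control by 2.19, 2.37 and 2.58. Reads were 36, 298, 376 and 468, and the scaled ratio of XRN1 to control was 8.70 (6.14 to 12.7). ZNF783 also had a low control library, 0.305 FPKM against 1.56, 1.28 and 1.46, with 59, 252, 254 and 256 reads. Its change over the control of 0.97 in XRN1 was under 2-fold on this scale, while its read ratio was 4.49 (3.37 to 6.06).

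ZNF550 and ZNF583 were the other members that rose over the control in XRN1. ZNF550, a KRAB zinc finger gene on chromosome 19, stood at 2.85, 6.77, 8.55 and 7.18 FPKM and rose over the control by 1.01, 1.31 and 1.09 in XRN1, SMG6/XRN1 and UPF1/XRN1. The control was lowest here too. ZNF583 stood at 5.15, 14, 20.4 and 25.4 FPKM, but its locus also holds the antisense gene ZNF582-AS1 and 60.1% of the signal was its own. On the signal of its own isoforms, a scale other than FPKM, the change in XRN1 was 0.68, under 2-fold.

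ZNF528 rose in UPF1/XRN1 over XRN1. It encodes a KRAB zinc finger protein of 15 fingers and had 3.93, 5.49, 8.77 and 14.6 FPKM in the same order of libraries. The UPF1/XRN1 library was highest. ZNF528 rose by 1.27 from XRN1 to UPF1/XRN1, with 249 and 609 reads and a scaled ratio of 2.25 (1.94 to 2.61). In SMG6/XRN1 over XRN1 its change was 0.59. Of the other members called over XRN1, ZNF506 (1.08) and ZNF573 (1.03) in SMG6/XRN1 were at 0.68 and 0.88 on own isoform signal, under 2-fold. Their own shares were 98.2% and 100%, so the lower values go with the isoform scale and not with reads of other genes. In the locus of ZNF705A, called in both, at most 4 reads in any library were its own, and the rest belonged to symbols such as FAM66C and CLEC4A. ZNF720, called in UPF1/XRN1 (1.02), was at 0.58 on its own signal.

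ZNF711 was the member that fell, from XRN1 to UPF1/XRN1, by 1.02 on the log2 scale. Its reads were 55564 and 31848, a scaled ratio of 0.526 (0.519 to 0.534), and its change on isoform signal was -0.93, just under 2-fold. In SMG6/XRN1 over XRN1 its change was -0.91. Over the control it was 0.31, -0.59 and -0.71. ZNF639 was next lowest in UPF1/XRN1 over the control, at 15.7, 15.5, 14.7 and 9.97 FPKM (-0.60), under 2-fold. ZNF594 had the lowest change in XRN1 over control, -0.82, from 2.88 to 1.19 FPKM, and stood at 2.11 and 1.97 FPKM in the co-depletions. On isoform signal, all of it its own, with 531 and 204 reads, it passed 2-fold (-1.31). ZNF845 was lowest in SMG6/XRN1, at 4.19, 3.12, 2.15 and 3.63 FPKM.

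**Figure D3:**
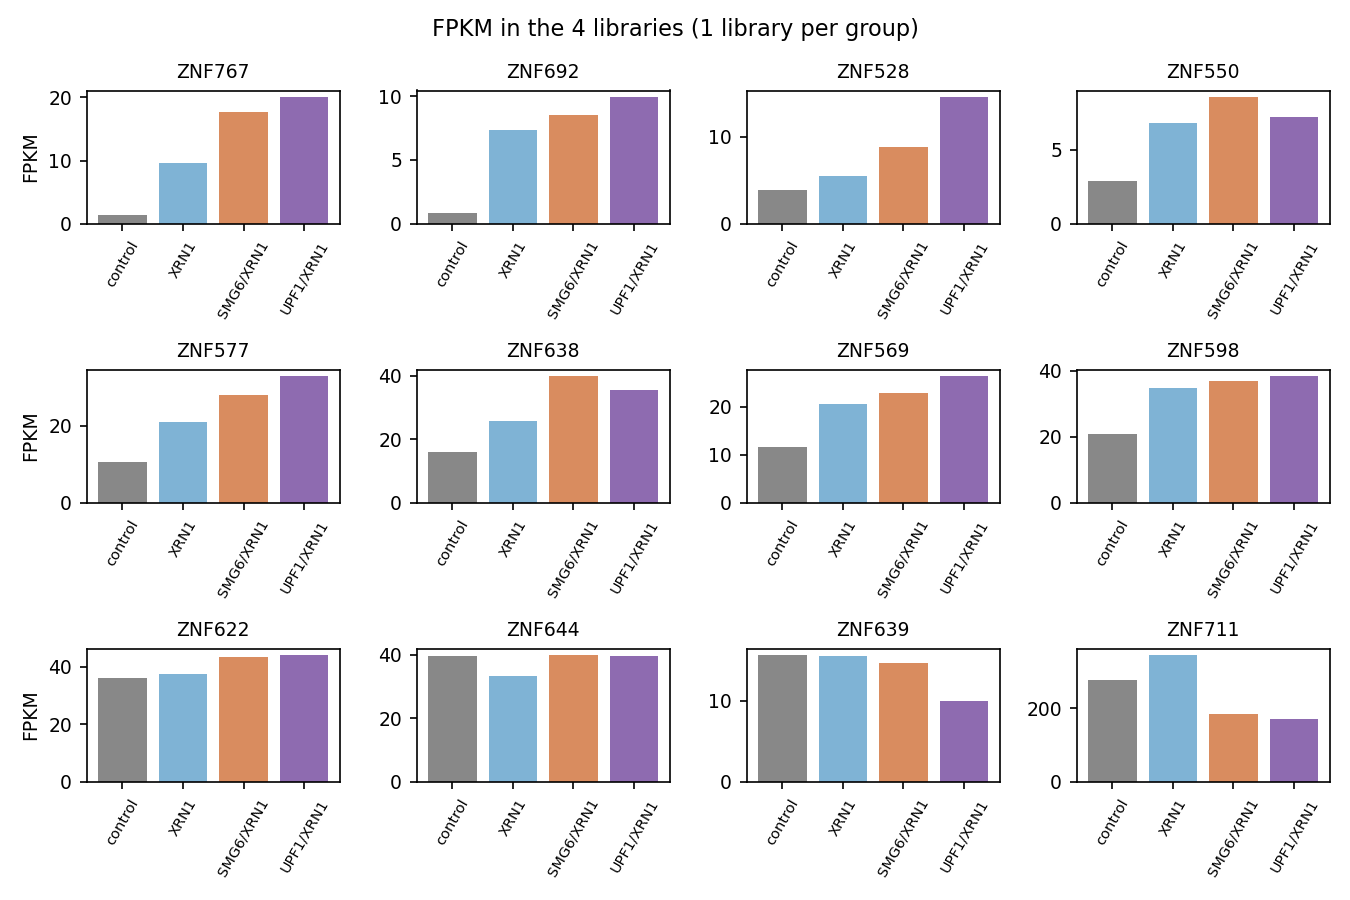
FPKM of 12 members in the 4 libraries, 1 library per bar, each panel with its own y axis from 0. In ZNF767, ZNF692 and ZNF550 the control bar (1.45, 0.835 and 2.85) is the lowest, in ZNF528 the UPF1/XRN1 bar (14.6) is the highest, and in ZNF711 both co-depletions (184 and 170) lie below the control (278).

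Among 16 genes of the number range listed for a known role, 13 were members. ZNF638, an RNA-associated nuclear protein, was the one that rose over the control. It had 15.9, 25.7, 39.9 and 35.6 FPKM, with changes of 0.66, 1.28 and 1.12. Its reads, 2879, 3961, 6919 and 7467, gave a scaled ratio of SMG6/XRN1 to control of 2.65 (2.54 to 2.77). ZNF598, the ubiquitin ligase that senses collided ribosomes, stood at 20.8, 34.8, 36.7 and 38.4 FPKM, with the control lowest and changes of 0.72, 0.79 and 0.86, all under 2-fold. ZNF592 (2.11, 2.98, 3.33 and 3.08 FPKM) and ZNF687 (1.93, 2.67, 2.81 and 2.0 FPKM), which share a chromatin complex with ZMYND8, were under 2-fold throughout. So was ZNF593, a factor of ribosome assembly, at 6.04, 8.50, 7.54 and 7.74 FPKM. ZNF703 (14.4, 12.5, 12.5 and 10.7 FPKM) and ZNF503 (6.98, 6.59, 7.52 and 4.96 FPKM), both regulators of the NET family, were lowest in UPF1/XRN1. ZNF521, a regulator of blood and neural precursors, stood at 2.54, 3.42, 2.03 and 2.02 FPKM, under 2-fold. The list had medians over the control of 0.31, 0.28 and 0.21 for XRN1, SMG6/XRN1 and UPF1/XRN1, with 0, 1 and 1 of 13 risen and none fallen, where 4.11%, 9.3% and 10.2% of all loci rose.

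Of the other members that rose over the control with at least 80% own signal, ZNF577, ZNF569 and ZNF625 are given first. ZNF577 with ZNF649 stood at 10.5, 21, 28.0 and 33.0 FPKM and rose by 1.34 in SMG6/XRN1 and 1.56 in UPF1/XRN1. ZNF569 (11.6, 20.6, 22.9 and 26.5 FPKM) rose in UPF1/XRN1 (1.13), and ZNF625 (9.12, 14.5, 21.6 and 19.5 FPKM) rose in both co-depletions (1.16 and 1.02). In each of these the control was lowest. ZNF695 with ZNF670 stood at 5.96, 9.0, 16.6 and 15.5 FPKM and rose in both co-depletions (1.34 and 1.24). On isoform signal the UPF1/XRN1 change was 0.99. ZNF552 (1.93, 2.79, 6.38 and 4.39 FPKM) rose in SMG6/XRN1 (1.33), the library in which it was highest. ZNF582 (3.39, 4.52, 7.83 and 7.32 FPKM) and ZNF677 (2.48, 3.76, 6.19 and 5.56 FPKM) rose there by 1.01 and 1.05. On isoform signal, all of it their own, the changes were 0.83 and 0.63, under 2-fold. ZNF610 (0.787, 1.70, 1.42 and 3.14 FPKM) rose in UPF1/XRN1 (1.21), the highest of its libraries. ZNF790 shows how FPKM and reads can differ. Its FPKM of 7.06, 11.8, 13.7 and 15.3 gave 1.02 for UPF1/XRN1 over the control, while its reads of 873, 1603, 3085 and 4716 gave a scaled ratio of 5.21 (4.85 to 5.61).

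Genes of KRAB corepressors and of heterochromatin more widely, such as DNMT1 and ATRX, were examined beside the members as 1 list. Of 31 listed, 30 were tested, with medians over the control of 0.03, 0.24 and 0.01 in XRN1, SMG6/XRN1 and UPF1/XRN1. TRIM28, the scaffold that binds the KRAB domain, stood at 63.6, 60.1, 66.7 and 53.9 FPKM, all within 2-fold. The histone chaperone subunit RBBP4 fell over the control in XRN1 by 1.01 and in UPF1/XRN1 by 1.26, at 225, 112, 123 and 93.5 FPKM. FAM208A, a component of the HUSH silencing complex, rose in SMG6/XRN1 (1.03), at 17.2, 32.1, 36.1 and 32.9 FPKM. No other listed gene passed 2-fold in these 3 comparisons.

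Members were also grouped by structure. Among the 143 members with a coding sequence and at least 80% own signal, 87 with a KRAB pattern had a median of 0.28 in both SMG6/XRN1 and UPF1/XRN1 over the control, and 6 and 7 of them rose. The 56 with neither a KRAB nor a SCAN pattern had 0.27 and 0.08, with 2 risen in each. Of all loci 9.3% and 10.2% rose in these comparisons. By chromosome, all matched members were used, whatever their share of own signal. The 85 on chromosome 19 had medians of 0.36 and 0.33, and the 88 on other chromosomes 0.30 and 0.21. Of the 143, 71 had 10 or more fingers, and 1 of these rose in SMG6/XRN1 and 3 in UPF1/XRN1. With 5 to 9 fingers (51 of the 143), 6 and 5 rose. With 0 to 4 fingers (21 of the 143), 1 and 1 rose, beside the same shares of all loci.

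Isoforms were then compared by annotated class. The deposited isoform table held 1446 isoforms of the members, 1185 above 0 in some library, and 752 past a filter on mean signal of 30.9, in 173 members. By class in the GENCODE 29 annotation, 418 were protein coding, 46 were NMD isoforms, 37 processed transcripts, 26 retained introns, and 177 had a junction outside the reference. The isoforms annotated as NMD, in 34 loci, had medians over the control of 0.56 (XRN1), 1.09 (SMG6/XRN1) and 1.28 (UPF1/XRN1). Those of the protein coding isoforms were 0.09, 0.40 and 0.37. Of the 46, 26 rose in SMG6/XRN1 and 2 fell, and 29 rose in UPF1/XRN1 and none fell. Of the 418, 105 and 112 rose and 33 and 49 fell. Over all 61408 isoforms past the filter, 35.2% rose and 8.52% fell in SMG6/XRN1, and 35.5% rose and 10.3% fell in UPF1/XRN1. Annotated NMD isoforms of all loci had medians of 1.27 and 1.43 in the co-depletions over the control. Of these, 56.2% rose in SMG6/XRN1 and 59.1% in UPF1/XRN1, near the 56.5% and 63.0% of the 46 of members.

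Over the library labelled XRN1, the 46 annotated NMD isoforms had medians of 0.70 (SMG6/XRN1) and 0.91 (UPF1/XRN1), against 0.31 and 0.24 for the protein coding isoforms. Of the 46, 21 rose in each, and 6 and 1 fell. The 21 are 45.7% of the 46. Over all isoforms 25.1% rose and 9.3% fell in SMG6/XRN1, and 27.1% rose and 11.5% fell in UPF1/XRN1. Among annotated NMD isoforms of all loci 40.0% and 44.7% rose and 7.06% and 7.54% fell, with medians of 0.69 and 0.79. In XRN1 over control 14 of the 46 rose and 8 fell, where 24.3% and 12.6% of all isoforms did. Of annotated NMD isoforms of all loci 33.8% rose and 11.7% fell there. The authors' TRUE mark for NMD, tested on the table, was set for every isoform with more than 2 times the control signal in each co-depletion and for no other, with 0 exceptions among 199618 isoforms. It thus repeats these values. It covered 168 member isoforms (22.3%), where 27.9% of all isoforms had it, and 36 of the 168 were listed at 0 in the control. Among annotated NMD isoforms of members 23 of 46 had it, where 49.5% of all such isoforms did. Among protein coding isoforms 17.2% had it, where 17.6% of all did, and among those with a junction outside the reference 27.1%, where 34.8% did.

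**Figure D4:**
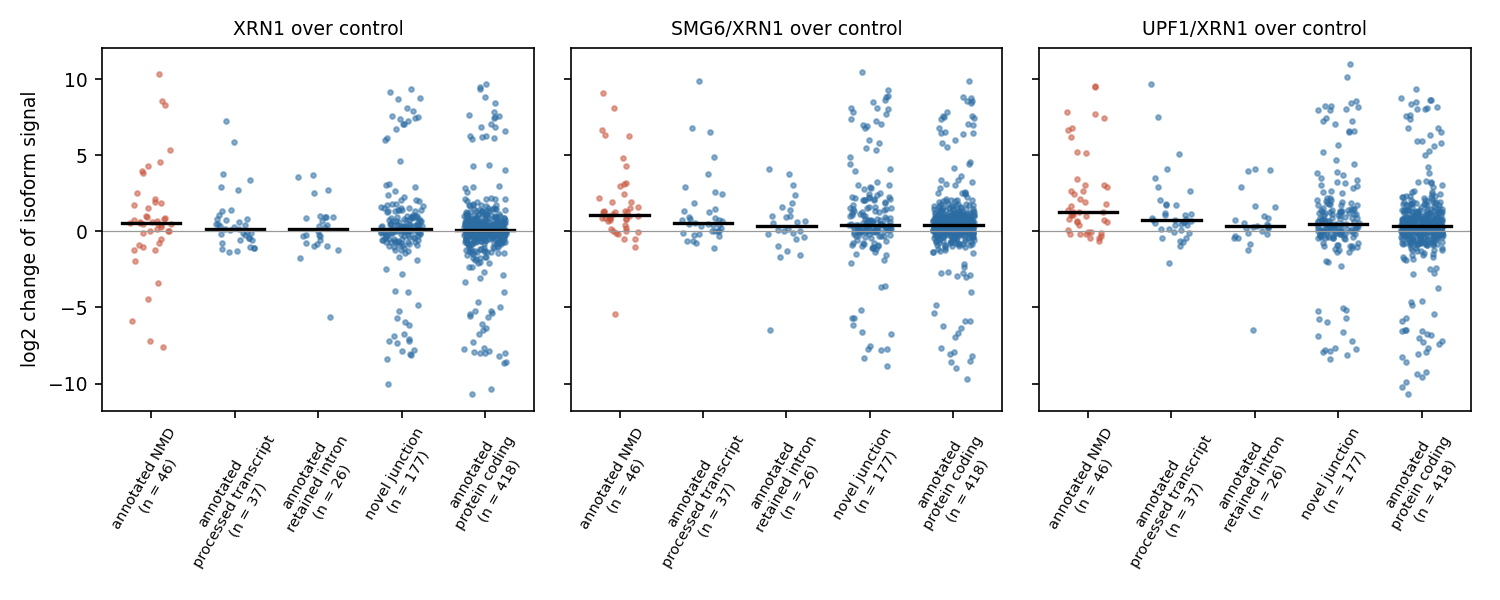
Log2 change of isoform signal over the control (y axis) for the member isoforms past the filter, by GENCODE 29 class, in 3 comparisons; each point is an isoform and the black line is the class median. The annotated NMD class (46 isoforms, red) has medians of 0.56, 1.09 and 1.28 against 0.09, 0.40 and 0.37 for the protein coding class; points far from 0 often have a library listed at or near 0.

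At the 34 loci with an annotated NMD isoform, such isoforms carried 2341 of 23345 reads in the control, 10%. The share was 15.3% with XRN1 targeted, 16.3% with SMG6/XRN1 and 19.4% with UPF1/XRN1. It was higher than in the control at 21, 25 and 26 of the 34 loci. Over XRN1 it was higher at 22 loci in SMG6/XRN1 and 23 in UPF1/XRN1. Of the 46 isoforms 7 were listed at 0 in the control. Those of ZNF615 and ZNF707 had signal in UPF1/XRN1 alone and passed the filter through it. At these loci the higher share in UPF1/XRN1 was thus fixed by the filter, and the counts are a description. The median share per locus was 7.35%, 14.6%, 11.1% and 15.9%, so by that measure SMG6/XRN1 lay below XRN1. Between control and UPF1/XRN1 the scaled signal of NMD isoforms went up 2.67 times and that of the other isoforms of the same loci 1.23 times. For SMG6/XRN1 the figures were 2.38 and 1.37. ZNF527 and ZNF550 gave much of this. Without them the shares were 9.41%, 12.6%, 12% and 14.8% and the NMD ratios 2.08 in UPF1/XRN1 and 1.8 in SMG6/XRN1. From XRN1 to SMG6/XRN1 the share without these loci was then lower, from 12.6% to 12%.

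The loci named in the rest of this account of isoforms were chosen after their values were seen. ZNF527, a KRAB zinc finger gene on chromosome 19, is described first. Its 2 annotated NMD isoforms held 117 of its reads in the control and 403, 698 and 1007 in XRN1, SMG6/XRN1 and UPF1/XRN1. Its other isoforms held 495, 555, 435 and 402. The NMD share of the locus was thus 19.2%, 42.1%, 61.6% and 71.5%. The gene itself had 4.03, 5.80, 7.13 and 8.10 FPKM, with changes over the control of 0.43, 0.69 and 0.85. On the isoform signal, the scale of these reads, it passed 2-fold in both co-depletions, with ratios of 2.05 (1.85 to 2.26) and 2.22 (2.02 to 2.44).

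ZNF550 had 144, 572, 970 and 988 reads on its annotated NMD isoforms and 482, 657, 631 and 592 on the others. Its NMD share went from 23.0% to 46.6%, 60.6% and 62.5%. ZNF695, whose locus also holds ZNF670, had 84, 141, 301 and 322 reads on 3 NMD isoforms, shares of 27.9%, 37.5%, 50.6% and 52.6%. ZNF721 had 44, 57, 121 and 177 reads, 4.25%, 5.57%, 11.6% and 13.6%. In all 3 the control was lowest and both co-depletions were above XRN1. ZNF606 went otherwise, with 172, 242, 110 and 169 reads and shares of 42.6%, 64.0%, 22.3% and 35.8%. ZNF589 had shares of 0.00976%, 63.9%, 2.57% and 9.50%, with the XRN1 library alone high, the widest range of the 34 loci. ZNF773 had 0, 80, 64 and 197 reads on its NMD isoform, which was listed at 0 in the control.

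**Figure D5:**
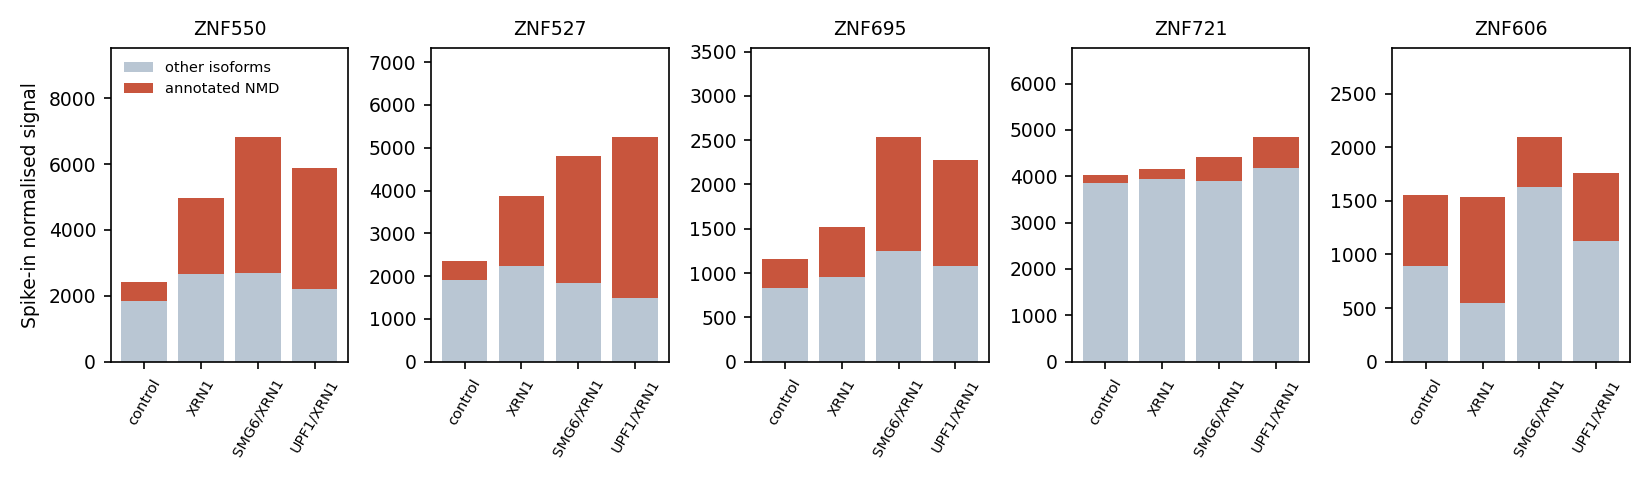
Isoform signal, spike-in normalised by the authors, at 5 loci in the 4 libraries, with the annotated NMD isoforms in red on top of the other isoforms past the filter in grey, each panel with its own y axis from 0. The red part grows from the control to both co-depletions at ZNF550, ZNF527, ZNF695 and ZNF721, and not at ZNF606; the loci were picked after their values were seen.

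The stop codons show how these isoforms differ from the coding forms. Of 362 member isoforms annotated as protein coding with a stop, 340 (93.9%) had it in the last exon, where 94.5% of all such isoforms did. The median last exon was 2200 nt, against 934 nt over all such isoforms. All 46 annotated NMD isoforms had the stop more than 50 nt before the last junction, with a median of 194 nt. That annotation class is based on this position. A reading frame from ATG was found in 44 of the 46, with a median of 81 residues, and 37 of the 44 had no finger. The longest coding form, matched for 42, had a median of 525 residues. Of the 42 isoforms, 34 had fewer fingers than the longest coding form. In 6 of the 44, at 5 loci, the coding sequence ended in the same bases as the longest coding form and a junction followed downstream. These loci were ZNF550, ZNF506, ZNF589, ZNF530 and ZNF652, and the form of ZNF652 was shorter, with 426 of 606 residues. The last bases of the coding sequence of NMD and coding forms are shown for 4 loci, to let the early ends be compared with the normal ones. They run 5' to 3', the stop codon is in capitals, and they come from GENCODE 29 transcripts on GRCh38, matched by transcript number. The version differs from that in the deposited files except for the NMD forms of ZNF773 and ZNF530.
ZNF773 NMD form: caagtggcgcccgaacagggacgtgagTGA
ZNF773 coding form: cgaaggattcacactggagaaatacaaTGA
ZNF527 shorter NMD form: ttggactctccatttctaagcccaacaTGA
ZNF527 longer NMD form: gctcttcctctaatgtccattcttgccTGA
ZNF527 coding form: cagagaattcataatagagaaacgctcTGA
ZNF695 NMD form: aggaatgactgggaaattgtggccatgTGA
ZNF695 coding form: cttgctgtacatgagaaaactcataccTGA
ZNF530 NMD and coding form: ttaagacacagaagagttcatgtgcagTGA
In the frame of ZNF773 the NMD form had 117 residues and no finger, and the coding form 442 residues and 9 fingers. In ZNF527 the NMD forms had 58 and 94 residues and no finger, and the coding form 609 residues and 11 fingers. In ZNF695 the frame had 121 residues and no finger, against 515 residues and 9 fingers. In ZNF530 both forms had 599 residues and 13 fingers.

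The member isoforms with the largest smaller rise over the control in both co-depletions were mostly of other classes, and all 8 had 0 reads in the control, so no fold is given. The isoform of ZNF767, a processed transcript, had 0, 38, 220 and 226 reads. That of ZNF839, an annotated NMD isoform, had 0, 94, 127 and 204. ZNF678, a form with a new junction, had 0, 0, 110 and 546 reads, and ZNF655, protein coding, 0, 346, 386 and 300. The isoforms of ZNF557, ZNF514, ZNF791 and ZNF674 had 208, 106, 98 and 83 reads in UPF1/XRN1. Reads on all own isoforms of the locus were 470, 460, 591 and 542 for ZNF557 and 1369, 1407, 1623 and 2523 for ZNF655. For ZNF678 they were 1941, 1946, 2111 and 2470, for ZNF514 230, 217, 275 and 285, and for ZNF791 853, 861, 1035 and 1021. For ZNF839 they were 477, 623, 818 and 932, for ZNF674 252, 462, 591 and 702, and for ZNF767 78, 1142, 1737 and 2099. How reads were divided among overlapping isoforms was not tested.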

How the data were processed

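RNA-seq of 4 libraries, 1 per group, was used. Per the submitters' processing notes, CASAVA 1.8.2, Bowtie 0.12.7, TopHat2 2.0.6, Cufflinks 2.0.2 and hg19 were named, with no role or order. Gene values are FPKM per assembled locus, deposited by the authors with Cufflinks in the table's name. Isoform values are a signal per assembled isoform, normalised to a spike-in according to the deposited table's name, with details not given in the sources used here. Low signals lay on whole multiples of a step per library (3.85, 4.05, 4.25 and 3.72); 84.3% to 86.5% of loci with at most 20 reads came out whole within 0.01. Dividing by the step gave estimated reads, so no count test was run.

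Changes are log2((a + 1)/(b + 1)), called at 2-fold, without p-values. Ratios of reads have 95% intervals from the exact conditional binomial distribution, which cover counting error only. Isoforms needed a mean signal of at least 30.9, the median of nonzero means. Classes, coding sequences and chromosomes come from GENCODE 29 (GRCh38), matched by transcript number or symbol; residues were read from its coding sequences, since no RefSeq protein table was at hand, and no coordinates are printed. Python 3.11.15, pandas 2.3.3, numpy 2.4.6 and scipy 1.17.1 were used, and the change calculation was tested on simulated data.

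Genes chosen for naming were, per comparison, the 8 largest rises and 5 largest falls (4 each way between the co-depletions), the 10 highest means, the list of known roles, 8 isoforms, up to 2 corepressor genes each way, and XRN1, SMG6 and UPF1. Not every gene so chosen is described. Further genes were named after their values were seen. The members and lists were chosen with earlier results of these data known. Alternatives were another pseudocount, centring, other filters, summed isoform signal and own-isoform signal.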

Additional observations from a re-analysis of the deposited data

How the results depend on the processing

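No paired analysis was possible because each group had 1 library and no replicate numbers, and for the same reason no library could be left out. The own-isoform signal, the 80% own share and the filters on annotated NMD isoforms were chosen after seeing the data. Of the members' counts and medians and those of their isoforms, 118 stayed within the margin and 68 moved. The comparisons are named here as X/C (XRN1 over control), S/X and U/X (SMG6/XRN1 and UPF1/XRN1 over XRN1), S/C and U/C (over control) and U/S (UPF1/XRN1 over SMG6/XRN1).
The share of all loci that passed 2-fold was not computed at these alternative settings. The member counts that follow therefore cannot be set against the all-locus shares given above. With a pseudocount of 0.1, members at least 2-fold higher numbered 9 (X/C), 6 (S/X), 5 (U/X), 24 (S/C), 31 (U/C) and 1 (U/S), and 2 were lower in X/C. With isoform signal summed per locus they numbered 9 (X/C), 29 (S/C), 28 (U/C) and 3 (U/S), with 1 lower in X/C and 0 lower in U/X, and medians of 0.49 (S/C) and 0.39 (U/C). With own isoforms only they numbered 10 (X/C), 5 (S/X), 5 (U/X), 25 (S/C) and 4 (U/S), with 1 lower in X/C, 0 lower in U/X and 1 lower in U/C, and medians of 0.47 (S/C) and 0.37 (U/C). ZNF705A, with own reads of 0, 0, 1 and 4, is in each of these counts of higher members. ZNF888 (5, 16, 17 and 23 reads) is in those of X/C and S/C, and ZNF878 (9, 6, 11 and 17 reads) in that of U/X. Centred on the median of all loci (0.14, 0.12, 0.25 and 0.15 for X/C, S/X, S/C and U/C), member medians were 0.01, 0.10, 0.09 and 0.11, and S/X had 0 higher and 1 lower. At a mean of at least 5 FPKM, S/X had 1 higher. At 80% own share, U/X had 1 higher. Without a filter, medians were 0.21 (S/C) and 0.14 (U/C).
For isoforms too, shares over all isoforms were not computed at the changed filters, so these counts have no background beside them. Without a filter, of 1185 member isoforms above 0, those higher and lower numbered 257 and 235 (X/C), 350 and 164 (S/X), 364 and 176 (U/X), 374 and 158 (S/C), 410 and 177 (U/C) and 239 and 220 (U/S). At 10 times the filter they numbered 47 and 16, 52 and 12, 45 and 18, 78 and 10, 79 and 19, and 22 and 19. At that filter the median of annotated NMD isoforms was 0.73 (X/C), 0.59 (S/X), 0.72 (U/X) and 1.25 (S/C), and that of protein coding isoforms 0.12 (U/X). Without isoforms listed at 0, NMD medians were 0.69 (U/X), 0.97 (S/C), 1.09 (U/C) and 0.10 (U/S). The cause was not tested. Of single named genes, 1144 values stayed on their side of 2-fold, 55 passed it newly, 25 no longer passed and 0 changed sign where called.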
